A study of Mus musculus with 21 samples.

Results

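The genes described here are the enzymes, membrane proteins and proton pump of the lysosome in brain macrophages. They were chosen by name: every gene whose symbol begins with Atp6v0 or Atp6v1, which covers the subunits of the vacuolar proton pump (V-ATPase), and 32 named genes for lysosomal enzymes, membrane proteins and the transcription factors that control them. The rule found 57 of the 57180 genes in the count table, and 50 of these passed the filter on low counts and were tested among 18867 genes. The 50 comprised 12 glycosidases and their activators, 7 enzymes and precursors acting on lipids and peptides, 7 membrane proteins, 3 sulfatases and 3 transcription factors. The rest were 8 genes named for the membrane sector V0, among them the pseudogene Atp6v0c-ps2, and 10 for the cytosolic sector V1.

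RNA was sequenced from cells sorted from the brains of adult mice, in 21 libraries labelled as biological replicates. Monocyte-derived microglia after transplantation (MLC) and transplanted microglia (MG) both carried the genotype Osb-GFP. Microglia of mice without a transplant (NoTx) carried CX3CR1-CreER+/- and CSF1R fl/fl, so genotype and transplantation cannot be told apart where MLC or MG is set against NoTx. Cells were taken 5 days after seizures induced by kainic acid, a glutamate receptor agonist (6 MLC, 4 MG and 3 NoTx libraries), or after saline (3 MLC, 3 MG and 2 NoTx libraries). The batch label is 1 for every seizure library and 2 for every saline library, and seizure therefore cannot be told apart from batch.

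Lysosomes break down what microglia and macrophages engulf, and most of their hydrolases work only in acid. The V-ATPase acidifies the lumen: its V1 sector hydrolyses ATP in the cytosol and drives rotation of the V0 sector, which carries protons across the membrane. Tfeb, Tfe3 and Mitf are related transcription factors that bind E-box sequences with the core CACGTG in promoters of many lysosomal genes, and inherited loss of single lysosomal enzymes causes storage disease, often with damage to the brain.

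Promoter sequence was taken from RefSeq (build GRCm38.p6, from 250 bases before to 50 bases after a transcript start), which matched 48 of the 57 members in 59 windows. These windows are shown because the TFE factors are members of the set. Their core site occurs in some genes that differed between kinds of cells and in some that did not. No window was found for Atp6v0a2 and Atp6v1c1, which also differed. On either strand, CACGTG occurred in 14 of the 48 members (29.2%), against 1779 of 20010 genes of the table that have a window (8.89%). The longer palindrome TCACGTGA, which contains the core, occurred in 7 members (14.6%), against 1.38% of all genes. Below, the core is in capitals, and the windows are Cd164 at chr10:41519250-41519549 on the plus strand, Lgmn at chr12:102439043-102439342 on the minus strand, Gla at chrX:134600956-134601255 on the minus strand, Lamp1 at chr8:13158911-13159210 on the plus strand and Galc at chr12:98259410-98259709 on the minus strand.
Cd164: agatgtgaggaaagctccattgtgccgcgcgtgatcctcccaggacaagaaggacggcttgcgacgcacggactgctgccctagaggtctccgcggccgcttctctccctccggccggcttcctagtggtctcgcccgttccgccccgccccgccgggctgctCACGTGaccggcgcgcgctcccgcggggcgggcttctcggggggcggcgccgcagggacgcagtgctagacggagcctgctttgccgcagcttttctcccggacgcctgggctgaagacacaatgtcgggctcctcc
Lgmn: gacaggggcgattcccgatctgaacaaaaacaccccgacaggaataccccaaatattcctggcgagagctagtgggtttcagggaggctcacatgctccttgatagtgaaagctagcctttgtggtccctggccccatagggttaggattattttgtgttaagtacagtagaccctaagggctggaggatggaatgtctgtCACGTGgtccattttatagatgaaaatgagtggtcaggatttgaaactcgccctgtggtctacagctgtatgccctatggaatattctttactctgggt
Gla: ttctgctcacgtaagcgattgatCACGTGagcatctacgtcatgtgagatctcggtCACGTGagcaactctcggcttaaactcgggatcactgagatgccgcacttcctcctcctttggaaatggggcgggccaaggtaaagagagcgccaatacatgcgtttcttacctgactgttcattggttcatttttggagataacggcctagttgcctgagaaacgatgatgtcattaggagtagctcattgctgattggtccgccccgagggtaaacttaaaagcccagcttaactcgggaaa
Lamp1: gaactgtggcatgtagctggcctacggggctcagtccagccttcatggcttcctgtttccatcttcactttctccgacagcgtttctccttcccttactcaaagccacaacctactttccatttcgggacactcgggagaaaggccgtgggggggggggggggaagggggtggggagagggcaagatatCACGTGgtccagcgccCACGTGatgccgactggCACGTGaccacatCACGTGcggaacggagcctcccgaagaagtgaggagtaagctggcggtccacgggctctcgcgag
Galc: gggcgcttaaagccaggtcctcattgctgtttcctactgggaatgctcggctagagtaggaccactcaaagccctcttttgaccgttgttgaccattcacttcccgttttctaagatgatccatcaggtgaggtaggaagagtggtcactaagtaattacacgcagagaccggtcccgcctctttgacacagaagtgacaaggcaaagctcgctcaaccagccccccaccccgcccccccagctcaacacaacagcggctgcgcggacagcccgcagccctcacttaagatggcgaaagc
Counted from the transcript start, the core began at -87 in Cd164, at -49 in this window of Lgmn, at -227 and -194 in Gla, and at -61, -45, -28 and -15 in Lamp1. The Galc window held none of these letters. A second RefSeq window of Lgmn, from a start further upstream, held none either. A match describes the sequence only, and binding was not measured.

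Total counts ran from 6.571 to 73.84 M in seizure libraries and from 36.53 to 50.32 M in saline libraries, with 13074 to 17591 genes detected after seizure and 17893 to 21988 after saline. At equal depth, MG seizure replicate 3 (8920), MLC seizure replicate 5 (9512) and MG seizure replicate 4 (9658) stood lowest in the number of genes with at least 10 counts. The names of the seizure libraries end in F1, M1, F2 or M2, codes that occur in all 3 kinds of cells and that no label explains. The names of MLC seizure replicates 3 and 6 carry the codes of replicates 2 and 4 plus the mark 11b. No label says whether the animals are the same, so results are stated without them where that ends a call. Xist, a transcript of the inactive X chromosome, exceeded 50 CPM (counts scaled to library size by TMM) in 0 of 9 MLC, 7 of 7 MG, 2 of 3 NoTx seizure and 0 of 2 NoTx saline libraries, so in MLC against MG the presence of Xist and the kind of cell cannot be told apart. Transcripts of 4 Y-linked genes together exceeded 50 CPM in 6 of 6 MLC seizure, 3 of 3 MLC saline, 4 of 4 MG seizure, 2 of 3 MG saline, 1 of 3 NoTx seizure and 2 of 2 NoTx saline libraries, so most MG libraries held both. The letters F and M were followed only in part: Xist passed this level in 4 of 7 libraries coded F and 2 of 6 coded M, and the Y-linked transcripts in 5 of 7 and 6 of 6. The marker lists followed the labels: summed microglial markers were 14680 to 23840 CPM in MLC, 46480 to 74590 in MG and 55090 to 72450 in NoTx after seizure, and 11 markers of monocyte-derived macrophages summed to 21430 to 62340, 900.8 to 1233 and 673.5 to 828.9 CPM.

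The members together summed to 10654 to 27794 CPM in MLC seizure libraries (median 20480), 23910 to 44903 in MG seizure and 28245 to 44707 in NoTx seizure libraries. After saline the sums were 26065 to 38908 CPM in MLC, 41288 to 50075 in MG and 32040 to 35109 in NoTx. As a share of all counts they made up between 0.9805% (MLC seizure replicate 5) and 4.834% of a library. The most abundant members weigh most in such sums. After seizure Lgmn alone averaged 6452 CPM in MLC, where the mean sum was 20390, and 16120 CPM in MG, where it was 35210. The sums therefore do not describe the typical member, whose median log2 fold change in MLC against MG was -0.19. In these bulk libraries, fewer cells of a type and less RNA per cell cannot be told apart. Per transcript length, the protease Lgmn was the most abundant member in all 6 groups and the precursor Psap the next: Lgmn averaged 6894 TPM (counts scaled to transcript length and then to library size) in MLC, 15780 in MG and 16350 in NoTx after seizure, and Psap 1875, 2927 and 3076 TPM.

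MLC were first set against MG, that is, transplanted cells from monocytes against those from microglia. After seizure, MLC had more Galc transcript than MG and less of Cd164, Lgmn, Tpp1, Atp6v0a2 and Atp6v1c1. These 6 of 50 members (1 higher, 5 lower) passed an adjusted p of 0.05 in the edgeR quasi-likelihood test with Benjamini-Hochberg adjustment over all genes, against 5.88% of all genes tested. By direction, 2.51% of all genes were called higher and 3.37% lower. The median log2 fold change was -0.19 over the 50 members and 0.00 over all genes, with 18 members positive and 32 negative. At an unadjusted p under 0.05 stood 12 of the 50 members (2 with higher and 10 with lower values), against 24.9% of all genes. The groups did not overlap for 2 members with higher and 3 with lower values in MLC, against 2.44% and 2.96% of all genes.

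**Figure D1:**
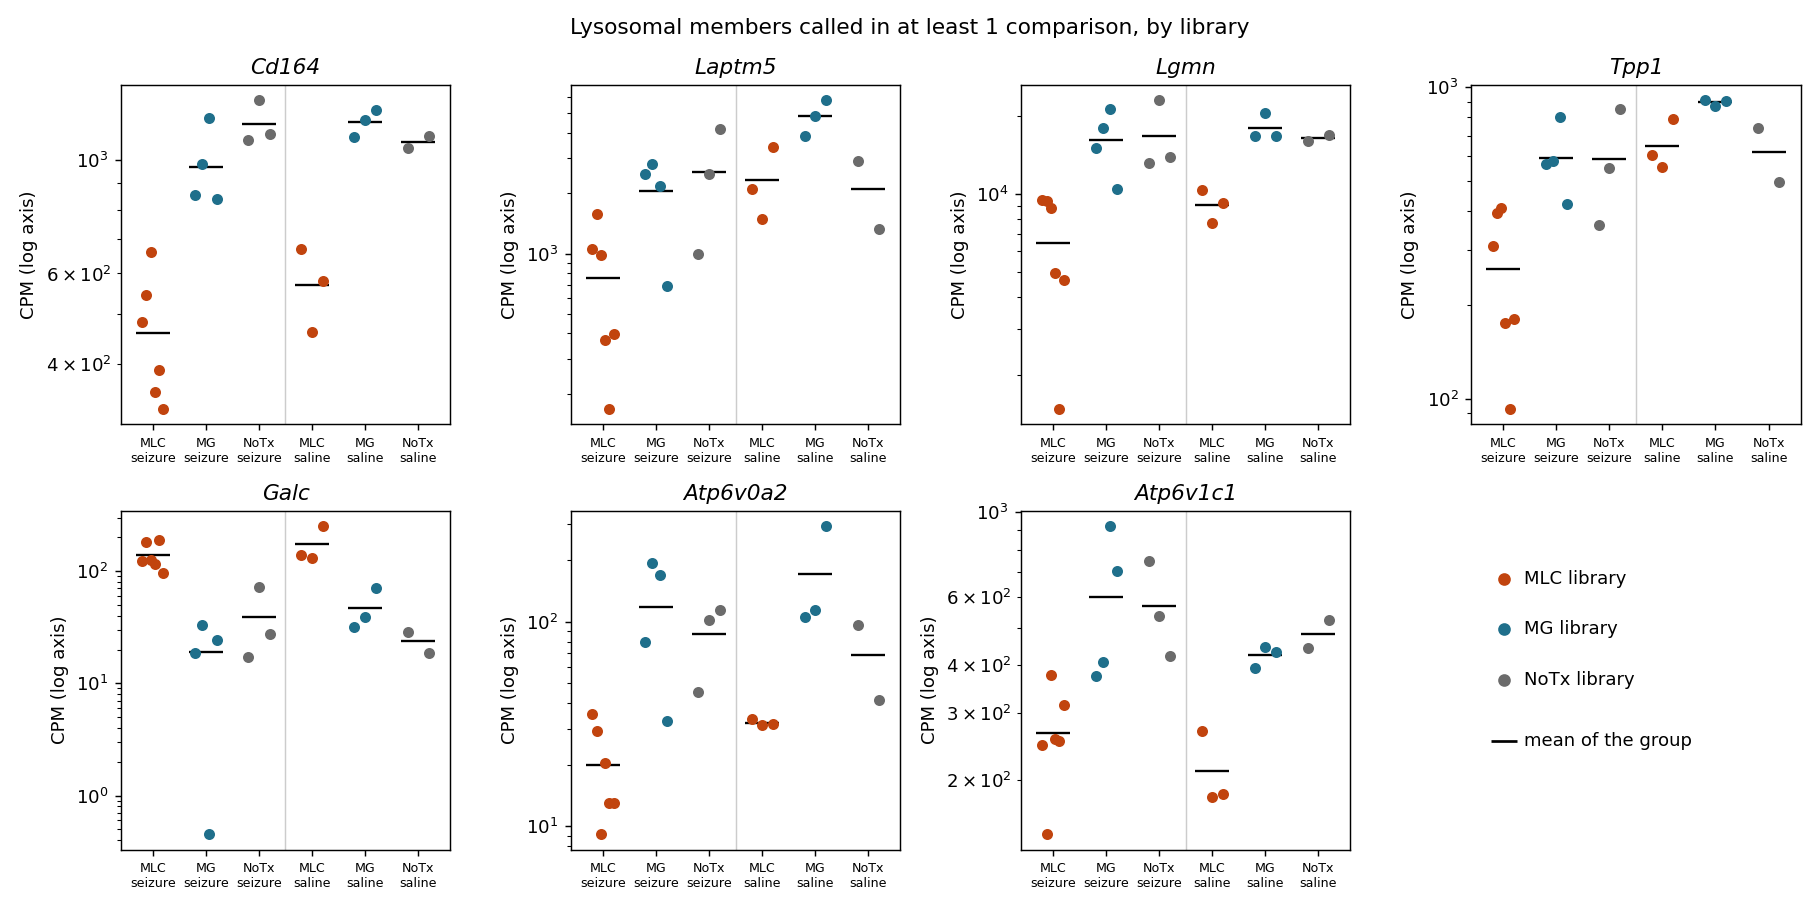
TMM-scaled CPM on a log axis for the 7 members called in at least 1 comparison; each point is a library, and MLC, MG and NoTx stand side by side for seizure and for saline, with a line at the group mean. Galc lies above all MG and NoTx libraries in every MLC library, with 1 MG seizure library at 0.4509 CPM, and Cd164 is at most 670.8 CPM in MLC libraries and at least 837.7 CPM in all others.

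Among the membrane proteins, Cd164 (ENSMUSG00000019818), a sialomucin of endosomes and lysosomes also known as endolyn, had the narrowest groups of the called members. After seizure MLC libraries had from 326.6 to 660.5 CPM (median 434.7), MG libraries 853.7, 982.5, 1206 and 837.7 CPM, and NoTx libraries 1095, 1308 and 1126 CPM. After saline the values were 670.8, 461.9 and 580.1 CPM in MLC, 1108, 1196 and 1254 in MG, and 1055 and 1113 in NoTx. Every MLC library was below every MG and NoTx library in both treatments. After seizure Cd164 averaged 459 ± 128.5 CPM in MLC (SD, n = 6) and 970.1 ± 170.4 in MG (SD, n = 4), a log2 fold change of -1.08 (SE 0.21, adjusted p = 0.0024). After saline its log2 fold change was -1.05 (SE 0.27), and the adjusted p of 0.054 missed the limit.

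The other 6 membrane proteins did not pass in MLC against MG in either treatment. Lamp2, a major glycoprotein of the lysosomal membrane that also serves chaperone-mediated autophagy, had 873.3 to 1170 CPM in MLC seizure libraries (median 919.5), 1051, 898, 1183 and 922.2 CPM in MG and 1286, 1320 and 1101 CPM in NoTx. After saline Lamp2 had 934.2, 871 and 1206 CPM in MLC, 1083, 1233 and 1187 in MG, and 1088 and 1218 in NoTx. MLC and MG overlapped in both treatments, and Lamp2 had the smallest spread of all tested members (pooled within-group SD 0.17 on the log2 scale). Its log2 fold change in MLC against MG after seizure was -0.05, with a 95% interval of -0.42 to 0.33.

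Laptm5, a lysosomal membrane protein of blood-lineage cells, had 169 to 1581 CPM in MLC seizure libraries (median 688.1), 2491, 2796, 2167 and 690.5 CPM in MG and 993.5, 2478 and 4176 CPM in NoTx. After saline it had 2094, 1485 and 3396 CPM in MLC, 3847, 4845 and 5789 in MG, and 2890 and 1318 in NoTx. One low MG library and several higher MLC libraries overlapped after seizure, and the log2 fold change of -1.43 (SE 0.49) did not pass (adjusted p = 0.089). Laptm4a, a related membrane protein, averaged 1012 ± 293.2 CPM in MLC and 780.1 ± 84.45 CPM in MG after seizure (adjusted p = 0.36). Cln3, the membrane protein of juvenile Batten disease, averaged 54.2 ± 28.75 and 54.9 ± 20.09 CPM, and the cation channel Mcoln1 16.7 ± 7.202 and 11.49 ± 14.98 CPM, in MLC and MG.

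Galc (ENSMUSG00000021003), the galactosylceramidase that degrades galactolipids of myelin and is lost in Krabbe disease, was the 1 member called higher in MLC than in MG. After seizure MLC libraries had 95.92 to 187.2 CPM (median 125.4), MG libraries 18.66, 32.89, 0.4509 and 24.46 CPM, and NoTx libraries 17.14, 72.19 and 27.66 CPM. After saline the values were 138.8, 130.2 and 251.5 CPM in MLC, 31.72, 39.06 and 71.24 in MG, and 28.84 and 18.48 in NoTx. No MLC library overlapped with an MG or NoTx library of either treatment. After seizure Galc averaged 138.4 ± 37.17 CPM in the MLC libraries and 19.12 ± 13.75 CPM in the MG libraries (log2 fold change 2.86, SE 0.67, 95% interval 1.47 to 4.25, adjusted p = 0.011). Without the low library, MG seizure replicate 3, the log2 fold change was 2.45 (adjusted p = 0.002). After saline the log2 fold change of 1.87 (SE 0.77) did not pass (adjusted p = 0.46).

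Of the other 11 glycosidases and activators, 0 passed in MLC against MG after seizure. Gla, the alpha-galactosidase lost in Fabry disease, had 12.12 to 44.18 CPM in MLC (median 17.33) against 3.34, 7.849, 0.02653 and 0.06354 CPM in MG. The groups did not overlap, but its mean difference (log2 fold change 2.88, SE 1.06) did not pass (adjusted p = 0.11). The lowest MG values of Gla are in replicates 3 and 4, the MG libraries that stood lowest in genes at equal depth, and the part of library complexity in this difference was not tested. The alpha-mannosidase Man2b1 averaged 277.9 ± 118.4 CPM in MLC and 532.5 ± 194.7 CPM in MG (adjusted p = 0.16), and Hexa, the hydrolase lost in Tay-Sachs disease, 391.1 ± 260.7 and 709 ± 298.8 CPM (adjusted p = 0.2). Its cofactor Gm2a averaged 528 ± 234.4 CPM in MLC and 596.7 ± 203.7 CPM in MG.

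Among the enzymes and precursors for peptides and lipids, Lgmn (ENSMUSG00000021190), the asparaginyl endopeptidase legumain that processes other lysosomal proteases, was lower in MLC after seizure. MLC libraries had 1485 to 9467 CPM (median 6870), MG libraries 14960, 17890, 21200 and 10430 CPM, and NoTx libraries 13170, 22940 and 13820 CPM. After saline Lgmn had 10330, 7696 and 9251 CPM in MLC, 16660, 20480 and 16760 in MG, and 16040 and 16860 in NoTx. Every MLC library was below every MG and NoTx library of its treatment, although the spread within MLC was wide after seizure. The Lgmn means after seizure were 6452 ± 3267 CPM in MLC and 16120 ± 4568 CPM in MG (a log2 fold change of -1.32, SE 0.34, adjusted p = 0.023). The call was lost without MLC seizure replicates 3 and 6 (log2 fold change -1.30, adjusted p = 0.073). After saline the log2 fold change was -0.98 (SE 0.44, adjusted p = 0.55).

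Tpp1 (ENSMUSG00000030894), the tripeptidyl peptidase lost in late infantile neuronal ceroid lipofuscinosis, had 92.97 to 410.4 CPM in MLC seizure libraries (median 244.4), 566.9, 578.5, 799.9 and 422.6 CPM in MG and 361.3, 552.3 and 851.5 CPM in NoTx. After saline it had 605.6, 553.6 and 788.6 CPM in MLC, 907.8, 870.1 and 904.4 in MG, and 739.1 and 497.3 in NoTx. MLC and MG did not overlap in either treatment, while 1 NoTx library lay within the MLC range in each. Tpp1 averaged 260.5 ± 130.2 CPM in MLC and 592 ± 155.7 CPM in MG after seizure (a log2 fold change of -1.18, SE 0.33, adjusted p = 0.034), a call that held in 9 of 19 other fits. Without MLC seizure replicates 3 and 6 it did not pass.

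Psap, the precursor of the saposins that present lipids to hydrolases, and Grn, the progranulin precursor, were abundant and uneven. Psap had 586.9 to 4834 CPM in MLC seizure libraries (median 1999), 4547, 4890, 5066 and 1102 CPM in MG and 1281, 4226 and 6356 CPM in NoTx. Grn had 217.6 to 847.3 CPM in MLC seizure libraries (median 489.8), 819.4, 780.7, 1113 and 485.9 CPM in MG and 476.2, 1038 and 1939 CPM in NoTx. Both were low in MLC seizure replicates 4, 5 and 6, in MG seizure replicate 4 and in NoTx seizure replicate 1, and the groups overlapped. Within MLC the low libraries are those coded F2 or M2: Psap had 586.9 to 923.9 CPM in these 3 and 3075 to 4834 CPM in the 3 coded F1 or M1, and Lgmn had 1485 to 4934 and 8805 to 9467 CPM. In MG the ranges of both genes overlapped between these codes, and NoTx seizure replicate 3, the NoTx library coded F2, had the highest Psap of its group. After saline Psap had 5746, 5111 and 9069 CPM in MLC, 6658, 8124 and 8388 in MG, and 4090 and 1780 in NoTx. Grn then had 829.6, 912.2 and 2208 CPM in MLC, 1467, 1994 and 2497 in MG, and 849 and 385 in NoTx. NoTx had the lowest Psap in both of its saline libraries, and MLC overlapped with MG for both genes. The acid ceramidase Asah1 averaged 1496 ± 305.5 CPM in MLC and 1110 ± 231 CPM in MG after seizure (adjusted p = 0.23), and the palmitoyl thioesterase Ppt1 680.6 ± 108.7 and 733.6 ± 183.9 CPM.

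Of the 3 TFE factors and 3 sulfatases 0 passed in MLC against MG after seizure. Tfe3 had 30.92 to 91.31 CPM in MLC seizure libraries (median 48.67), 50.98, 93.82, 18.67 and 47.18 CPM in MG and 41.26, 49.05 and 213.8 CPM in NoTx. Its saline values were 109.7, 124.5 and 176.2 CPM in MLC, 175.6, 110.7 and 289.9 in MG, and 104.3 and 60.08 in NoTx. MLC and MG overlapped in both treatments. Tfeb, the best known regulator of lysosomal genes, was scarce: it had 0.2707 to 5.387 CPM in MLC seizure libraries (median 0.822), 2.161, 6.852, 0 and 8.165 CPM in MG and 0.1382, 6.32 and 9.943 CPM in NoTx. After saline Tfeb had 2.172, 4.396 and 12.68 CPM in MLC, 5.031, 7.297 and 13.96 in MG, and 4.157 and 2.784 in NoTx. The groups overlapped in both treatments. Mitf had 13.34 to 74.36 CPM in MLC seizure libraries (median 28.08), 21.81, 22.55, 27.14 and 6.926 CPM in MG and 31.93, 22.8 and 26.24 CPM in NoTx. After saline Mitf had 24.76, 30.5 and 22.04 CPM in MLC, 25.5, 23.69 and 18.6 in MG, and 28.3 and 33.93 in NoTx, again with overlap of MLC and MG. Among the sulfatases, Arsb averaged 122.2 ± 19.68 CPM in MLC and 113.6 ± 34.81 CPM in MG after seizure, while Arsa and Ids stayed below 10 CPM on average in both.

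**Figure D2:**
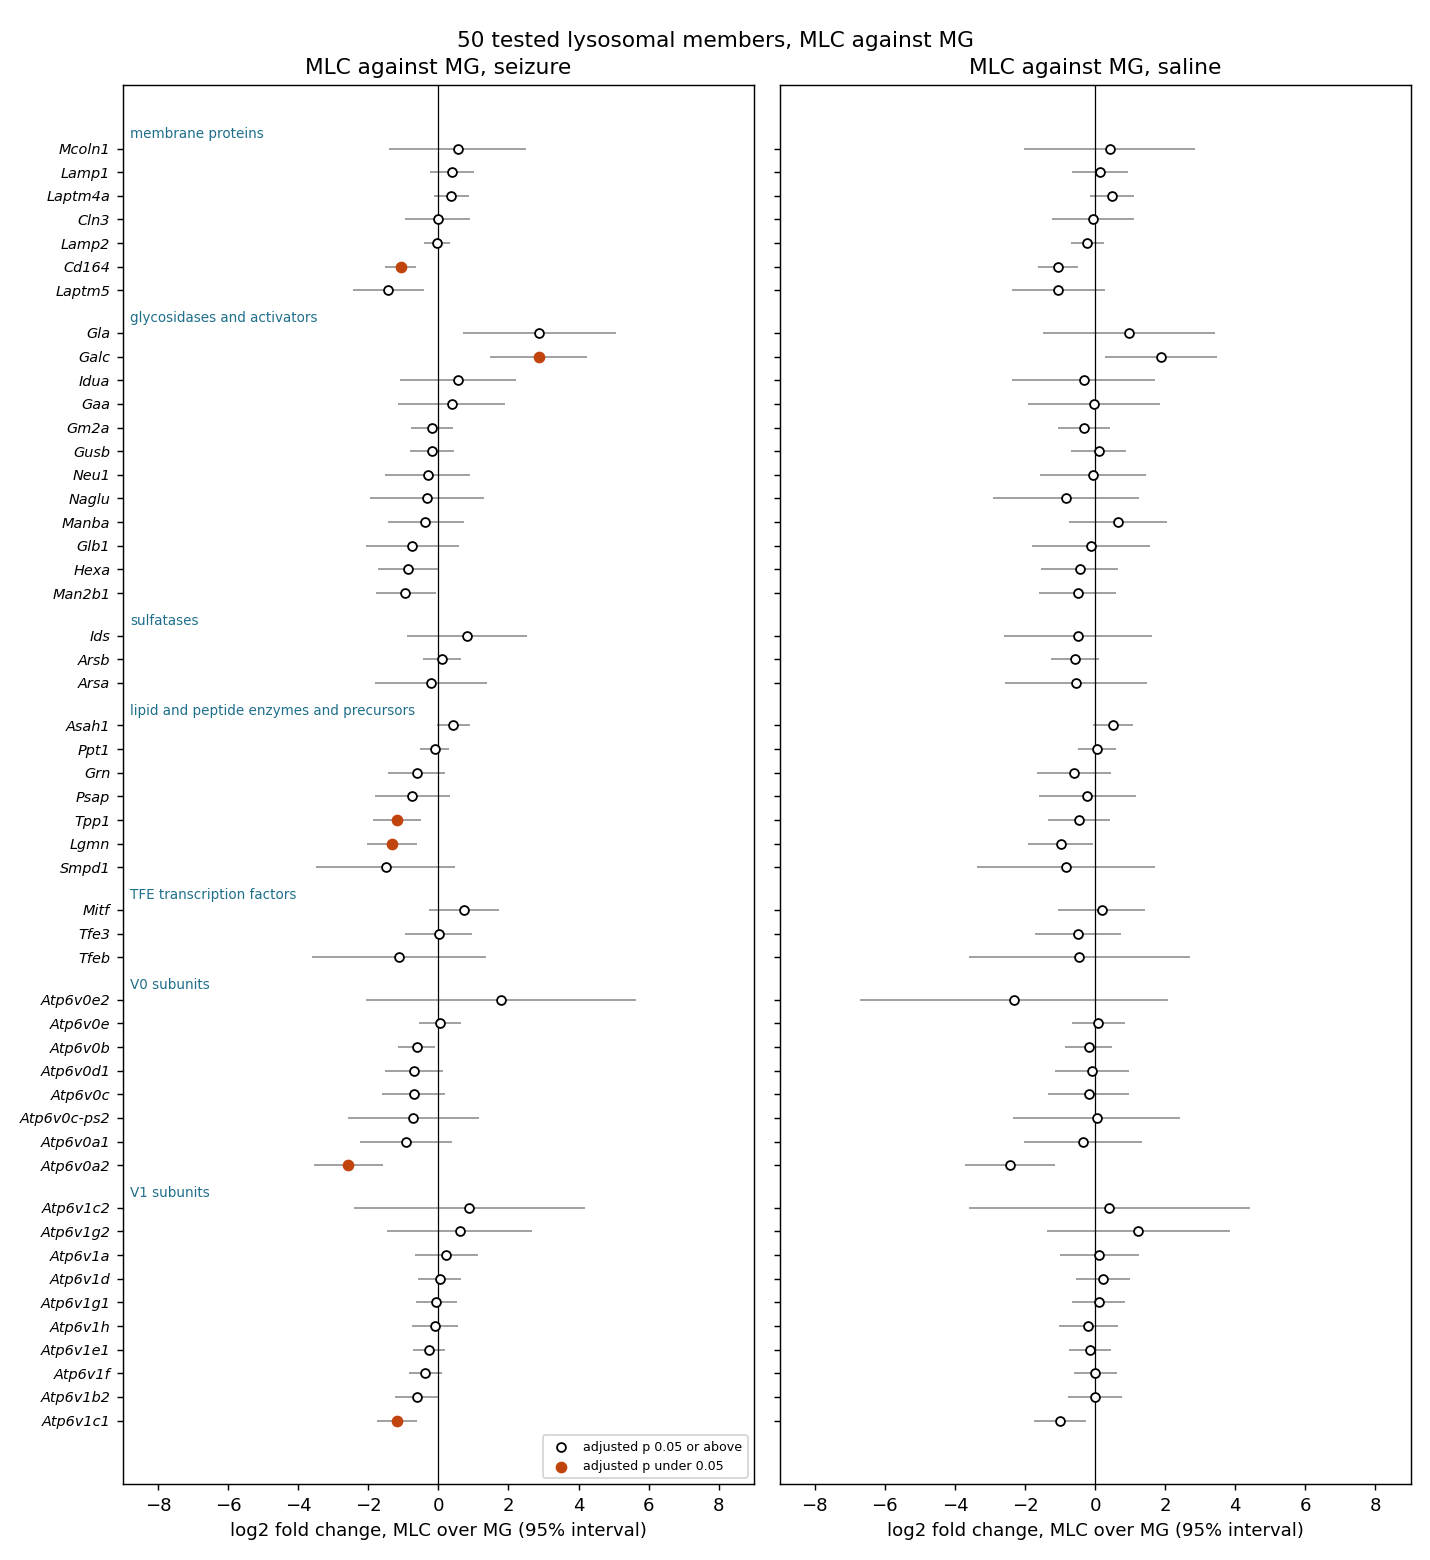
Log2 fold changes of MLC over MG with 95% intervals for the 50 tested members, after seizure and after saline; filled points passed an adjusted p of 0.05. Cd164, Atp6v0a2, Atp6v1c1 and Lgmn lie on the negative side and Galc on the positive side in both panels, and most intervals cross 0.

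Among the V-ATPase genes, MLC had less of the subunits Atp6v0a2 and Atp6v1c1 than MG after seizure. The other 16 tested, among them the pseudogene Atp6v0c-ps2, did not pass. The 25 members with names beginning with Atp6v0 or Atp6v1 were also summed. After seizure these sums were 2487.1 to 3772.7 CPM in MLC, 3374.9 to 5668.7 in MG and 3337.3 to 4369 in NoTx. After saline they were 3027.5 to 3755.4, 3382.7 to 4173.3 and 3369.4 to 3939.3 CPM. Atp6v0a2 (ENSMUSG00000038023) encodes an isoform of the large a subunit of V0, which takes part in proton passage and in directing the pump to its membrane. It had 9.125 to 35.44 CPM in MLC seizure libraries (median 16.69), 79.95, 193.1, 169 and 32.69 CPM in MG and 45.41, 101.5 and 114.7 CPM in NoTx. Its saline values were 33.32, 31.1 and 31.61 CPM in MLC, 105.9, 113.6 and 293.6 in MG, and 95.97 and 41.27 in NoTx. MLC was below MG and NoTx throughout, except that MG seizure replicate 4 lay within the MLC seizure range. After seizure it averaged 20.03 ± 10.39 CPM in MLC and 118.7 ± 75.2 CPM in MG (a log2 fold change of -2.57, SE 0.47, adjusted p = 0.0012). After saline the log2 fold change was -2.42 (SE 0.62), and the adjusted p was just above the limit of 0.05.

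Of the genes for the a subunit, Tcirg1 (isoform a3) lies outside the naming rule and was set beside Atp6v0a1 and Atp6v0a2. On the TPM scale Atp6v0a2 averaged 8.17 ± 4.79 in MLC, 43.5 ± 28.7 in MG and 33.1 ± 16.4 in NoTx after seizure, and 12.4 ± 1.22, 66.4 ± 38.4 and 28.7 ± 18.7 after saline. Atp6v0a1 averaged 16.4 ± 14.8, 29.2 ± 16 and 45.1 ± 53 TPM after seizure, and Tcirg1 74.3 ± 64.3, 102 ± 42.5 and 136 ± 113 TPM. Tcirg1 was thus the most abundant of the 3 on average in each kind of cell after seizure, and its log2 fold change in MLC against MG was -0.56 (SE 0.53, adjusted p = 0.57). After saline Atp6v0a2 made up 2.99% to 5.42% of the summed TPM of the 3 isoforms in MLC, 11.6% to 20.3% in MG and 21.3% to 24% in NoTx. After seizure these shares overlapped, at 2.44% to 26.5% in MLC, 16.2% to 29.7% in MG and 11.8% to 22.5% in NoTx.

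Atp6v1c1 (ENSMUSG00000022295) encodes the ubiquitous C subunit of V1, which is part of the stator that holds V1 to V0. It had 144.4 to 377.4 CPM in MLC seizure libraries (median 254.9), 373.2, 407.5, 921 and 702.9 CPM in MG and 748.9, 536.9 and 422.4 CPM in NoTx. After saline it had 269.4, 181.3 and 184.5 CPM in MLC, 391.4, 444.9 and 433.4 in MG, and 442.2 and 522.9 in NoTx. MLC was below NoTx in both treatments and below MG after saline, and the highest MLC library just overlapped with the lowest MG library after seizure. Atp6v1c1 averaged 265.7 ± 77.67 CPM in MLC and 601.2 ± 259.6 CPM in MG after seizure (a log2 fold change of -1.18, SE 0.28, adjusted p = 0.011). Its highest MG values come from replicates 3 and 4: without MG seizure replicate 3 the log2 fold change was -0.90 (adjusted p = 0.078), and without these 2 libraries and MLC seizure replicate 5 it was -0.43 (adjusted p = 0.48).

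The other V-ATPase subunits include some of the most abundant transcripts of the set. Atp6v0b, a proteolipid of the V0 ring, had the highest TPM of the pump genes, with means of 1131 in MLC, 1593 in MG and 1534 in NoTx after seizure, and its log2 fold change in MLC against MG was -0.62 (SE 0.25, adjusted p = 0.14). The catalytic subunit Atp6v1a averaged 78.31 ± 47.3 CPM in MLC and 67.17 ± 5.344 CPM in MG, and its partner Atp6v1b2 240.9 ± 114.9 and 371.6 ± 66.54 CPM (adjusted p = 0.19). The stalk subunits Atp6v1e1 and Atp6v1g1 had log2 fold changes of -0.27 and -0.06. Atp6v0c, the main ring proteolipid, averaged 297.2 ± 187.9 CPM in MLC and 485.4 ± 260.9 CPM in MG (adjusted p = 0.33), and its values are uncertain, since its reads could be shared with the pseudogenes Atp6v0c-ps1 and Atp6v0c-ps2. The alternative isoforms Atp6v0e2 and Atp6v1c2 averaged under 2 CPM in every group, too few counts for a fold.

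**Figure D3:**
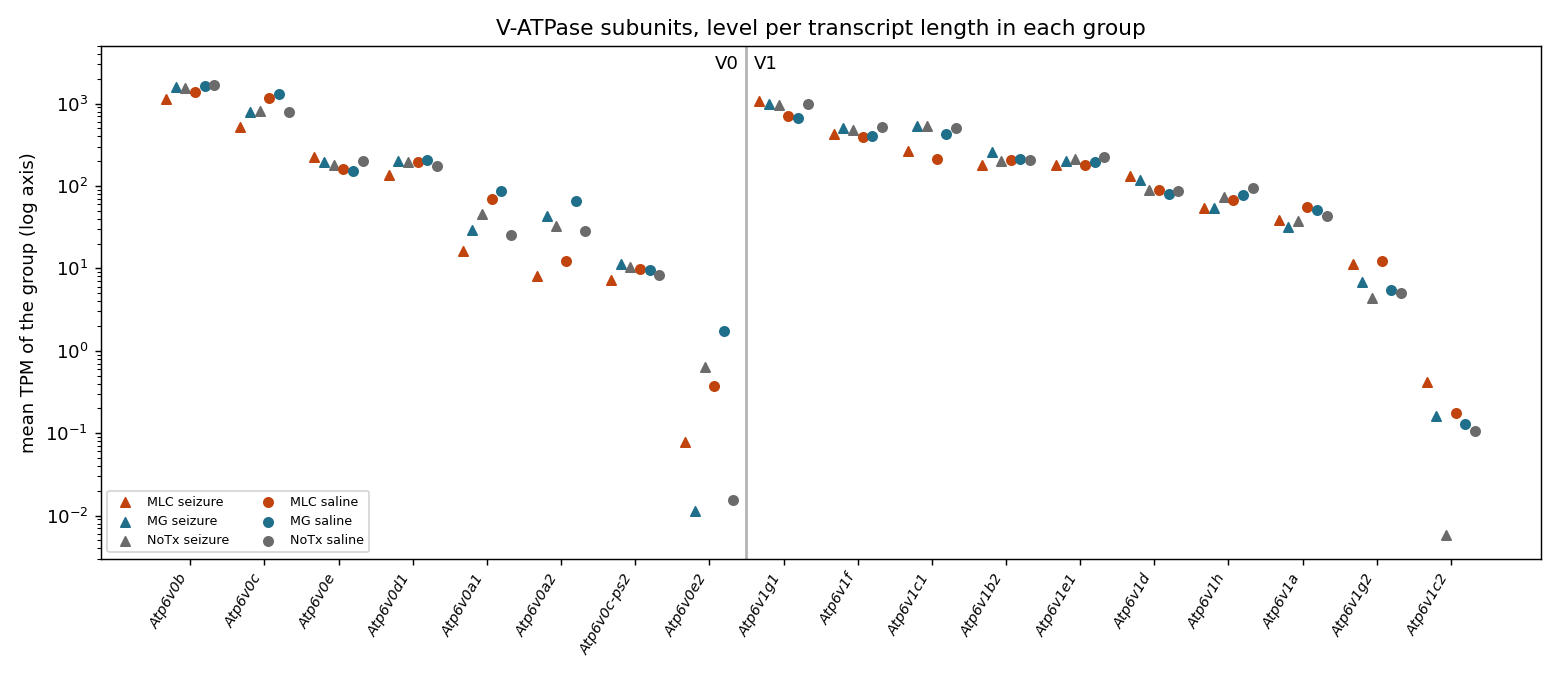
Mean TPM on a log axis of the V-ATPase subunits and the pseudogene Atp6v0c-ps2 in the 6 groups, with colours for the kind of cell and symbols for the treatment. Atp6v0b, Atp6v1g1 and Atp6v0c lie highest in MLC seizure libraries (1131, 1060 and 526.2 TPM) and Atp6v0e2 and Atp6v1c2 lowest (0.07837 and 0.419 TPM), and Atp6v0a2 and Atp6v1c1 are the subunits called between MLC and MG after seizure.

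The 7 members that did not pass the filter all entered the set by a name beginning with Atp6v0 or Atp6v1. Over all 21 libraries (627 M counts) Atp6v1b1 had 2 counts, Atp6v1g3 had 1, Atp6v0a4 had 14 in 1 library, and Atp6v1e2 and Atp6v0c-ps1 had 9 each. Atp6v0d2, an isoform of osteoclasts and some macrophages, and Atp6v1fnb had 0 counts, which allows a level of up to 0.00478 CPM over the pooled libraries (3 counts, counting error only).

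After saline, 0 of 50 members passed in MLC against MG, against 1.58% of all genes. In the edgeR test 5 members had an unadjusted p under 0.05 (Galc positive, Atp6v0a2, Cd164, Atp6v1c1 and Lgmn negative), against 8% of all genes, and DESeq2 called 2. The groups did not overlap for 5 members with higher and 10 with lower values in MLC, against 10.4% and 12.4% of all genes. The sign of the log2 fold change in MLC against MG was the same after seizure and after saline, which share no libraries, for 38 of 50 members (76%) and for 12501 of 18867 genes (66.3%). The difference between the differences was tested as an interaction: 0 members passed and 0 had an unadjusted p under 0.05 in edgeR, DESeq2 called 0, and of all genes 0% passed and 5.49% had such a p. The interaction estimate was -0.02 for Cd164 (95% interval -0.74 to 0.69), 0.99 for Galc (-1.01 to 2.98) and -0.15 for Atp6v0a2 (-1.72 to 1.41).

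Set against microglia without a transplant, MLC again had less Cd164, Lgmn, Atp6v0a2 and Atp6v1c1 after seizure, and less Laptm5. These 5 of 50 members were lower and 0 higher, against 6.16% of all genes in either direction and 3.61% lower; this comparison uses the same MLC libraries as the one above. Cd164 had a log2 fold change of -1.36 (SE 0.23, adjusted p = 0.00045; 1177 ± 115 CPM in NoTx, n = 3) and Atp6v0a2 one of -2.13 (SE 0.49, adjusted p = 0.01; 87.19 ± 36.77 CPM in NoTx). Lgmn had -1.37 (SE 0.37, adjusted p = 0.028) and Atp6v1c1 -1.10 (SE 0.30, adjusted p = 0.029). Laptm5, at 757.5 ± 536.9 CPM in MLC and 2549 ± 1592 in NoTx, overlapped between the groups and passed narrowly (log2 fold change -1.75, SE 0.53, adjusted p = 0.049). Without MLC seizure replicates 3 and 6, Atp6v0a2 (-1.82, adjusted p = 0.062) and Lgmn (-1.37, adjusted p = 0.071) no longer passed, nor did Laptm5. The median was -0.42 over the members, with 15 positive and 35 negative, and 0.00 over all genes. At an unadjusted p under 0.05 stood 12 members (3 with higher and 9 with lower values), against 24.8% of all genes. Galc had a log2 fold change of 1.83 (SE 0.71, adjusted p = 0.13) without overlap, and Lamp1 one of 0.75 (SE 0.34, adjusted p = 0.18).

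Neutrophil markers moved with this comparison: 5 of 5 tested were called lower in MLC than in NoTx after seizure and 4 of 5 after saline. The 8 listed markers summed to 3.417 to 18.49 CPM in MLC and 6.428, 13.05 and 816.9 in NoTx after seizure. NoTx seizure replicates 1 and 2 thus lay within the MLC range, and only replicate 3 lay above it. After saline the sums were 2.317 to 5.452 CPM in MLC and 62.26 to 1607 CPM in NoTx. Ly6g and Mpo were at 0 in all MLC seizure libraries, but Mpo was also at 0 in all NoTx seizure libraries. Ly6g reached at most 0.06912 CPM in these NoTx libraries. In MLC against MG 0 of 5 neutrophil markers were called. Of 8 astrocyte markers, the glutamate transporter Slc1a3 was called lower in MLC in all 4 comparisons with MG or NoTx and the other 7 in none. After seizure Slc1a3 had 2.155 to 19.67 CPM in MLC, 313.3 to 568.8 in MG and 271.6 to 450.6 in NoTx, while the other 7 summed to 3.654 to 138.6, 0.4244 to 54.82 and 30.9 to 93.72 CPM. The median log2 fold change of the 8 in MLC against MG was 1.08 after seizure and 0.37 after saline, so there Slc1a3 ran against the list. In MLC against NoTx the median of the 8 was -0.55 after seizure, on the side of Slc1a3, and 0.92 after saline. Of 6 tested endothelial and mural markers, the adhesion molecule Pecam1 was called lower in MLC against MG after seizure and against NoTx in both treatments. In MLC against MG after seizure Pecam1 had a log2 fold change of -5.67 and the 6 a median of 0.96, so Pecam1 ran against the list. Against NoTx the medians were -3.38 after seizure and -4.63 after saline. Pecam1 alone had 0.1347 to 0.8627 CPM in MLC, 3.209 to 62.33 in MG and 32.28 to 50.42 in NoTx after seizure. The 8 listed summed to 1.212 to 6.556 CPM in MLC, 4.352 to 62.33 in MG and 36.28 to 57.74 in NoTx after seizure, and to 0.5213 to 6.338, 16.89 to 25.9 and 55.22 to 57.47 CPM after saline. The part of these cells in the lysosomal differences was not tested.

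After saline, 0 of 50 members passed in MLC against NoTx, against 1.26% of all genes; 4 had an unadjusted p under 0.05 in edgeR, against 8.08% of all genes, and DESeq2 called 2. Cd164 had a log2 fold change of -0.93 (adjusted p = 0.21), Atp6v1c1 of -1.19 and Galc of 2.87 (adjusted p = 0.22 for each). The groups of 3 and 2 libraries did not overlap for 15 members with higher and 5 with lower values in MLC, against 15.3% and 18% of all genes. The median was 0.47 over the members and 0.08 over all genes.

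Transplanted microglia were also compared with microglia without a transplant, where transplantation cannot be told apart from genotype. After saline 0 of 50 members passed, against 0.053% of all genes; 6 had an unadjusted p under 0.05 in edgeR, all with higher values in MG, against 3.4% of all genes, and DESeq2 called 0. All 12 glycosidases and activators had positive log2 fold changes, with a median of 1.20, against 0.30 over the 50 members and 0.02 over all genes. The 7 enzymes and precursors for lipids and peptides were also all positive or at 0.00, with a median of 0.53. Positive values were found for 39 of the 50 members and 9621 of 18867 genes. Man2b1 averaged 1141 ± 433.5 CPM in MG and 367.8 ± 231 in NoTx, and Hexa 1070 ± 332.1 and 405.1 ± 163.4 CPM. Grn averaged 1986 ± 515 CPM in MG and 617 ± 328.1 in NoTx (log2 fold change 1.69, SE 0.60), and the adjusted p of each was 1. Markers of other cells moved with this comparison too. Of 11 markers of monocyte-derived macrophages Clec12a, Cybb and Pf4 were called lower in MG, and the list summed to 599.9 to 1200 CPM in MG and 1013 to 3923 CPM in NoTx. The neutrophil list summed to 2.304 to 6.568 CPM in MG and 62.26 to 1607 CPM in NoTx, with a median log2 fold change of -7.69 and 0 of 5 called. The part of these cells was not tested. The 2 groups also differed in how levels followed the GC content of transcripts: the slope of a library on GC content was 0.3005 to 0.7811 in MG and -0.4487 to 0.04661 in NoTx (log2 per 10 points of GC). The 25 members of higher GC content had a median log2 fold change of 1.34 and the 25 of lower GC content one of 0.05. After seizure 0 of 50 passed in MG against NoTx, against 0.0742% of all genes, with 1 at an unadjusted p under 0.05 in edgeR, against 11.1% of all genes, and 0 called by DESeq2, and the median was -0.09.

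Seizure was compared with saline within each kind of cell, where it cannot be told apart from batch. In MLC 0 of 50 members passed in edgeR, against 0% of all genes; 1 with a higher and 15 with lower values after seizure had an unadjusted p under 0.05, against 11.9% of all genes in either direction, and DESeq2 called 1, Lamp1. The median was -0.39 over the members and -0.06 over all genes. After seizure 37 of the 50 members had lower values, against 9854 of 18867 genes. These were 25 of the 32 members outside the V-ATPase and 12 of the 18 V-ATPase members. The share of counts from mitochondrial genes moved with this comparison, at 0.6615% to 2.508% after seizure and 0.6118% to 0.842% after saline. It was highest in MLC seizure replicates 4, 5 and 6 (1.547%, 2.508% and 1.891%), the libraries low in Psap, Grn and Laptm5, and its part in the difference was not tested. Tpp1 averaged 260.5 ± 130.2 CPM after seizure and 649.2 ± 123.4 after saline (log2 fold change -1.32, SE 0.35), Man2b1 277.9 ± 118.4 and 810.4 ± 486.2 (-1.54, SE 0.44) and Psap 2336 ± 1768 and 6642 ± 2126 (-1.51, SE 0.56), with adjusted p of 0.3, 0.3 and 0.34. In MG 0 of 50 passed, against 0.0371% of all genes, with 3 higher and 8 lower values at an unadjusted p under 0.05, against 11.8% of all genes, and 0 called by DESeq2. Tfe3 averaged 52.66 ± 30.99 CPM after seizure and 192.1 ± 90.72 after saline in MG without overlap (log2 fold change -1.87, SE 0.55, adjusted p = 0.39). In NoTx 0 of 50 passed, against 0.106% of all genes, 0 had an unadjusted p under 0.05, against 7.35% of all genes, and DESeq2 called 0.

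Lamp1, the other major glycoprotein of the lysosomal membrane, was on the opposite side from most members for seizure over saline in MLC and MG, but not in NoTx. It had 178.2 to 363.1 CPM in MLC after seizure (median 288.9) and 182.7, 128.1 and 82.32 CPM after saline. In MG it had 200.8, 146.8, 258.4 and 253.2 CPM after seizure and 105.6, 160.8 and 88.93 after saline, and in NoTx 225.6, 187.5 and 86.96 after seizure and 118.2 and 207.6 after saline. The ranges after seizure and after saline overlapped in all 3 kinds of cells. The log2 fold change of seizure over saline was 1.10 in MLC (SE 0.35, adjusted p = 0.31), 0.86 in MG (SE 0.36, adjusted p = 0.4) and 0.03 in NoTx (SE 0.43, adjusted p = 1).

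**Figure D4:**
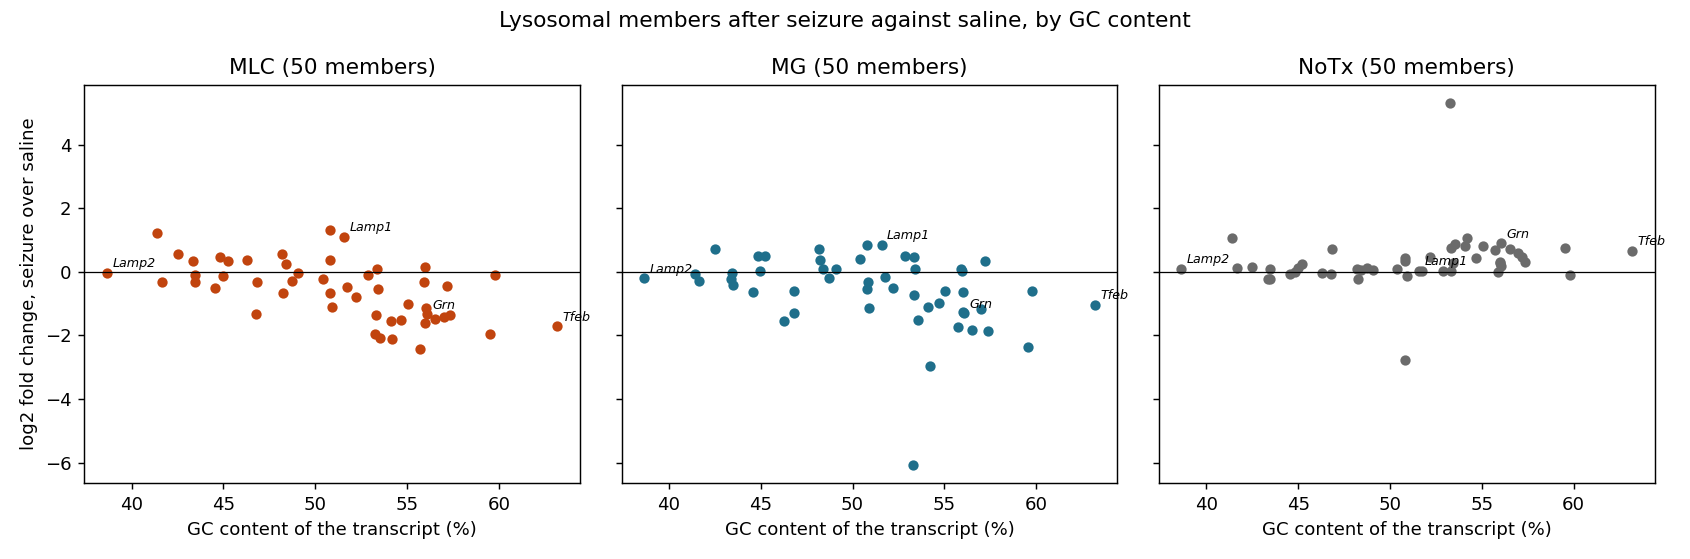
Log2 fold changes of seizure over saline for the 50 tested members against the GC content of their transcripts, 1 panel for each kind of cell. Members of higher GC content lie lower in MLC and MG (medians of -1.35 and -0.99, against -0.03 and -0.07 for those of lower GC content) but not in NoTx (0.47 and 0.09).

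The values after seizure and after saline moved with GC content. With the members split at their median of 51.68% GC, the richer 25 had a median log2 fold change of -1.35 in MLC, -0.99 in MG and 0.47 in NoTx, and the poorer 25 had -0.03, -0.07 and 0.09. The GC slope of the libraries ran from -1.29 to 0.0368 in MLC, -0.508 to 0.3816 in MG and -0.4252 to 0.6142 in NoTx after seizure, and from -0.1224 to 0.4724 in MLC and 0.3005 to 0.7811 in MG after saline. The same split gave medians of -0.62 and -0.02 in MLC against MG after seizure. With a GC-content offset in the fit, all 11 calls in the 2 seizure comparisons of MLC still passed, with a log2 fold change against MG of -1.29 for Cd164, 2.80 for Galc and -2.42 for Atp6v0a2.

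Spread within groups differed widely among members. Over the 44 members with a mean of at least 10 CPM the pooled within-group SD had a median of 0.72 on the log2(CPM + 1) scale, against 0.73 over 8095 genes of that level. It was 0.79 among seizure libraries and 0.33 among saline libraries. Lamp2 (0.17), Ppt1 (0.25), Atp6v1e1 (0.25) and Cd164 (0.28) were among the steadiest, and Smpd1, the acid sphingomyelinase, was the most variable (1.70). The 25 members of higher GC content had a median of 0.95 and the 25 of lower GC content 0.46.

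For 14 members the deviation from the group mean was compared with that of the GC slope over the 21 libraries, with permutations within groups and p adjusted over the 14. The slope is itself computed from the levels of genes by GC content, so genes of high GC content tend to follow it by construction. The permutations do not allow for this, and no correlations over all genes are given beside these. The p-values therefore cannot set lysosomal members apart from other genes of like GC content. Laptm5 followed the slope most closely (Pearson's r = 0.95, Spearman's rho = 0.92; permutation p = 1e-05, the smallest possible, adjusted 7e-05; r = 0.94 without MLC seizure replicate 5 and MG saline replicate 3). Psap had r = 0.89 and rho = 0.88 (permutation p = 1e-05, adjusted 7e-05; r = 0.89 without these libraries) and Grn r = 0.91 and rho = 0.89 (permutation p = 6e-05, adjusted 0.00028; r = 0.89). Lamp1 ran the other way, with r = -0.74 and rho = -0.73 (permutation p = 0.0018, adjusted 0.0051; r = -0.74). Of the called members, Tpp1 also followed it (r = 0.86, rho = 0.83; permutation p = 9e-05 and 0.00018, adjusted 0.00031 and 0.00063; r = 0.82 without these libraries), as did Atp6v0a2 (r = 0.69, rho = 0.72; permutation p = 0.0024 and 0.0018, adjusted 0.0056 and 0.005; r = 0.72) and Lgmn (r = 0.69, rho = 0.59; permutation p = 0.0067 and 0.016, adjusted 0.013 and 0.027; r = 0.56). Cd164 had r = 0.47 and rho = 0.56 (permutation p = 0.076 and 0.021, adjusted 0.11 and 0.029; r = 0.44), Galc r = 0.11 and rho = 0.36 (permutation p = 0.68 and 0.15, adjusted 0.73 and 0.18; r = 0.18) and Atp6v1c1 r = -0.43 and rho = -0.45 (permutation p = 0.11 and 0.079, adjusted 0.15 and 0.1; r = -0.52). Within batches, r was 0.95 after seizure and 0.95 after saline for Laptm5, 0.91 and 0.87 for Psap, 0.93 and 0.88 for Grn, 0.88 and 0.83 for Tpp1, 0.68 and 0.76 for Atp6v0a2, 0.48 and 0.43 for Cd164, and -0.78 and -0.69 for Lamp1. The batches differed for Lgmn (0.76 after seizure and 0.12 after saline) and for Atp6v1c1 (-0.48 and -0.11). They differed more for Galc, whose r was 0.00 among the 13 seizure libraries and 0.94 among the 8 saline libraries. The widest difference was that of Mitf, with an r of 0.19 after seizure and -0.97 after saline.

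**Figure D5:**
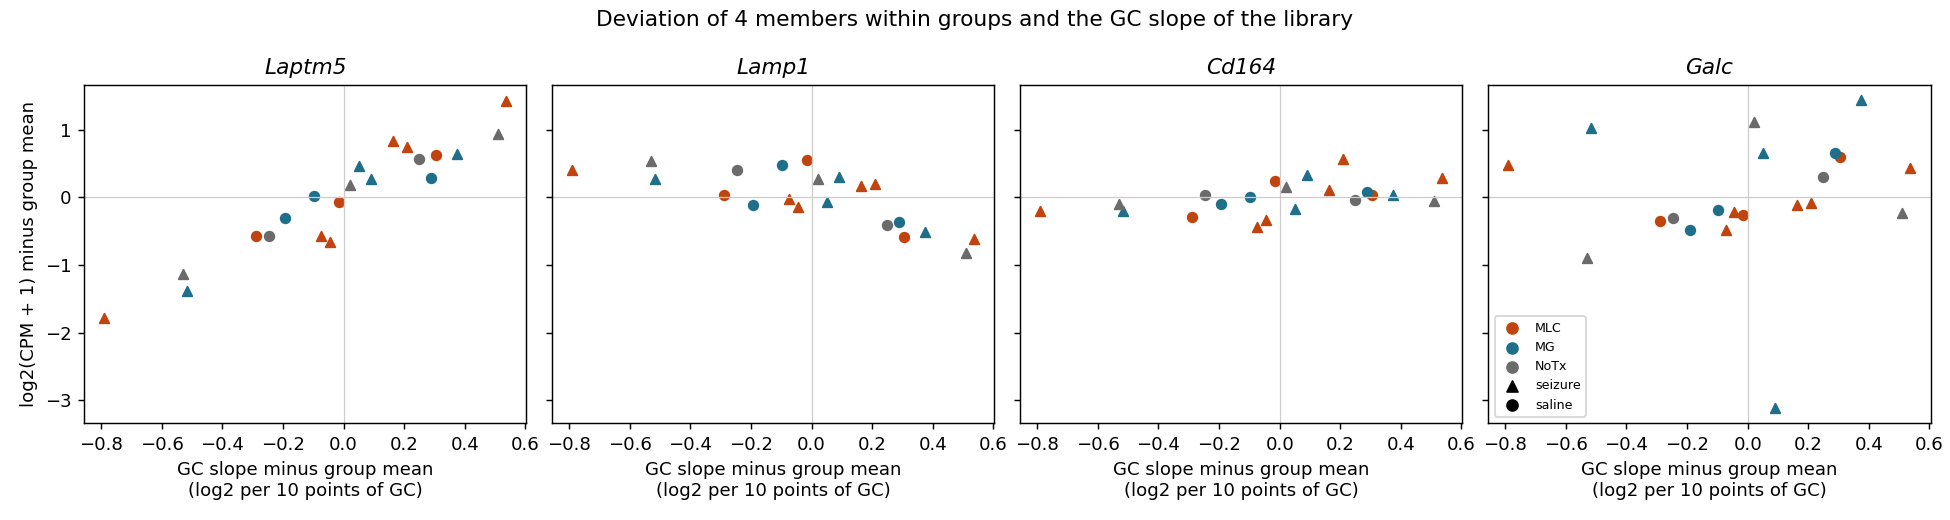
Deviation of log2(CPM + 1) from the group mean against the deviation of the GC slope of the library for Laptm5, Lamp1, Cd164 and Galc, 1 point for each of the 21 libraries. Colours give the kind of cell and symbols the treatment; points of Laptm5 rise along the slope (r = 0.95), those of Lamp1 fall (r = -0.74), and those of Cd164 and Galc are looser over all libraries (r = 0.47 and 0.11), although the saline points of Galc rise along it (r = 0.94).

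Lysosomal genes outside the naming rule were counted by list. Of all genes tested, 5.88% were called in MLC against MG after seizure (2.51% higher and 3.37% lower) and 1.58% after saline. In MLC against MG after seizure, 2 of 12 cathepsins were called higher and 3 lower, among them Ctsc, which activates serine proteases (6522 ± 1653 CPM in MLC, 2249 ± 658.4 in MG, log2 fold change 1.54), and Ctsl (138.4 ± 23.72 and 546.9 ± 188.3 CPM, log2 fold change -1.98). Of 35 other hydrolases and activators 1 was higher and 2 lower, among them the sulfatase Arsg (10.15 ± 7.506 CPM in MLC, 53.59 ± 33.12 in MG, log2 fold change -2.40). Of 38 other membrane proteins Cd63 was higher (1270 ± 231.9 and 666.2 ± 188.2 CPM, log2 fold change 0.93) and Slc46a3 lower. Of 22 genes for sorting to lysosomes the receptor Sort1 was lower (13.13 ± 6.495 and 75.62 ± 35.6 CPM, log2 fold change -2.52) and Rab7b higher. Of 28 genes of nutrient sensing and control of the TFE factors, Rptor was lower (19.45 ± 9.517 and 83.13 ± 25.29 CPM), and of 12 V-ATPase genes outside the naming rule the assembly factor Ccdc115 was lower (52.62 ± 15.23 and 109.5 ± 39.53 CPM, log2 fold change -1.06). After saline, 2 cathepsins, Cd63 and the hydrolase Plbd1 were higher and Ctsl and Sort1 lower, and 0 genes of the other 2 lists were called by edgeR.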

How the data were processed

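Gene counts were measured by RNA-seq in sorted brain cells, after RNA extraction and a low-input library kit that amplifies by PCR, per the labels' protocols. The authors deposited a table of estimated counts for each gene. Of its values above 0 in a library, 28.21% to 45.38% were not whole, and all were rounded here. Per the submitters' processing notes, the tools named were FastQC 0.11.9, MultiQC 1.14, Trim Galore 0.6.7, cutadapt 3.4, STAR 2.7.10a, featureCounts, Subread 2.4.5 and DESeq2 1.36.0, with the build GRCm39. Which tool gave fractions is not stated in these sources. No molecular identifiers are named, so count floors cover counting error only.

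All 21 libraries entered a single fit of 18867 genes with 6 group means in edgeR 4.0.16 (R 4.3.3, limma 3.58.1): TMM scaling, the filter of edgeR by group, a robust quasi-likelihood fit, and Benjamini-Hochberg adjustment over all genes in each of 10 comparisons, with 0.05 as the limit. The SE is the absolute log2 fold change over the square root of F. TPM used transcript lengths, and GC content the sequences, of the GENCODE annotation of GRCm38 matched by gene ID, with GC content known for 95.36% of tested genes. The GC slope is the slope, on GC content, of a library's log2 level minus the log2 of the gene's mean over all 21 libraries. It is thus relative to the mean of the libraries. P-values measure the spread between libraries labelled biological replicates. The fit was tested on simulated data.

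Any member that passed the filter could be named; values by library were given for members called at least once and for Lamp1, Lamp2, Psap, Grn, Tfeb, Tfe3 and Mitf, and Gla was added after its values were seen. Genes outside the rule were named only where called, apart from Tcirg1, Xist and marker genes at 0. One called gene of the lists is not reported here by name. The members and lists were chosen with earlier results of these data known. Other fits were DESeq2 1.42.0, RLE scaling, a fit of the compared groups alone, no low-count filter, replicate number as a blocking term, a GC-content offset (loess), MLC seizure replicates 3 and 6 left out, each library left out and, chosen after seeing the data, the 3 libraries with the fewest genes left out and the library-name code as a blocking term.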

Additional observations from a re-analysis of the deposited data

Results flagged for a closer look

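Psap was at 1100 CPM in MG seizure replicate 4, far from the nearest of the other 3 MG seizure libraries at 4550 CPM, which reached 5070 CPM. The gap was 0.869 of the group's whole range, above the critical value of 0.829 for 4 libraries. It was 1 of 28 groups of 14 members examined, and chance alone puts about 1 in 20 groups past this limit. The same library had the second fewest genes with 10 or more counts among MG seizure libraries (9658) and the lowest Laptm5 of that group (690.5 CPM). The part of library quality in the low Psap value was not tested.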

How the results depend on the processing

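None of the 11 calls of members changed direction in any other fit run. All 11 held under DESeq2, with a GC-content offset and with the codes F1, M1, F2 and M2 of the library names as a block (added after seeing the data), 9 with RLE scaling, 9 with the replicate block, 9 without the 3 libraries with the fewest genes, 8 without a low-count filter, 6 without MLC seizure replicates 3 and 6, 5 with only the groups compared, and 79 of 105 with 1 library left out. Cd164, Galc and Atp6v0a2 in MLC against MG after seizure held in 19 of 19 fits, and Cd164 in MLC against NoTx in 18 of 18. Lgmn held in 12 of 19 and 12 of 18, Atp6v1c1 in 16 of 19 and 13 of 18, Tpp1 in 9 of 19, Laptm5 in 6 of 18, and Atp6v0a2 against NoTx in 15 of 18. Atp6v0a2 against NoTx was lost with the replicate block (log2 fold change -1.48, adjusted p = 0.22).

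In MLC against MG after seizure (6 members called), the count was 3 with only the groups compared, 11 with the library-name codes as a block and 3 to 7 with 1 library left out, the lowest without MG seizure replicate 3. In MLC against NoTx after seizure (5), it was 3 with only the groups compared, 3 with the replicate block, 2 without MLC seizure replicates 3 and 6, 8 with DESeq2, and 2 to 6 with 1 library left out, the lowest without NoTx seizure replicate 2. In MLC against MG after saline (0), the counts were 1 with RLE scaling, 1 with no low-count filter, 5 with only the groups compared, 2 with the replicate block, 1 with the GC-content offset and 2 with DESeq2. In MLC against NoTx after saline (0) they were 1 with only the groups compared and 2 with DESeq2, and DESeq2 called 1 for seizure against saline in MLC (0). The cause of these shifts was not tested. Replicate numbers did not pair the libraries (same-number correlations from -0.323 to 0.36), nor did the codes of the seizure libraries (same-code correlations from -0.134 to 0.236), and the replicate block changed no other count by over 1.5 times.

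With RLE in place of TMM scaling, the median of all genes was 0.12, against 0.00, in MLC against MG after seizure and 0.13, against 0.00, in MLC against NoTx, and the members' medians became -0.06 and -0.31. In the interaction the median of all genes was 0.07, against -0.06, and that of the members 0.01, against -0.14. The smallest library held 6.571 M counts and the groups 2 to 6 libraries, and a member that did not pass is not shown to be equal between groups.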
